A study of Mus musculus with 11 samples.

Results

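The 37 genes of the mouse mitochondrial genome were described across 11 RNA libraries. Every library came from a different mouse, 8 weeks old, and from the shell of the nucleus accumbens. The members are all genes that GENCODE M21 places on chromosome M. They comprise 13 mRNA genes, 2 rRNA genes and 22 tRNA genes, out of 52550 genes in the count table. The members were chosen by chromosome, not by any measured value. This region belongs to the ventral striatum, and poly(A) RNA was taken from tissue punched from frozen sections. The series concerns Huntington disease and decreased retinoic acid receptor beta (Rarβ) signalling in mice of a CBA/C57BL6J/129svEmx mixed background. Its design names 12 samples, of which 1 failed quality control. The labels give each of the 11 libraries an animal code (m44 to m115) and no genotype, so no groups were compared and each library is given by its code. In bulk tissue, fewer cells of a type and less RNA per cell cannot be told apart.

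The mitochondrial genome is a small circular DNA that is transcribed from both strands into long precursors. The tRNAs lie between most of the mRNAs and rRNAs, and their removal by RNase P and the tRNase ELAC2 releases the mature transcripts. The mRNAs encode subunits of respiratory complexes I, III, IV and V and most receive short poly(A) tails, while tRNAs receive only a CCA end. The other subunits of these complexes, and all proteins that copy, transcribe and translate mitochondrial DNA, are encoded in the nucleus. Neurons depend heavily on oxidative phosphorylation to maintain ion gradients and synaptic transmission.

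The mitochondrial genes held 2.90% of all gene counts in m74, 4.17% in the median library and 7.21% in m61. The other 9 libraries lay between 3.27% in m57 and 5.15% in m101. Totals ran from 24840981 counts in m61 to 48825783 in m49, so the 95% Wilson interval of the m61 share was 7.198 to 7.219% and that of the m74 share 2.90 to 2.91%. These intervals cover counting error only. The library m61 also had the lowest total and the fewest genes with a count, 20524 against a median of 23646, so values that rest on m61 are given with and without it. All 10 listed markers of striatal projection neurons passed the low-count filter, which required 3 libraries at 1 CPM or more (counts per 1000000 counts of a library) and 10 counts or more in the median library. Their score, a mean of log2 deviations from each gene's median, lay between -0.45 in m74 and 0.81 in m44 and fell into separate clusters. Its part in the results below was not tested.

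On the scale of CPM, with TMM scaling of the libraries (trimmed mean of M values), the 13 mRNAs together stood at 22300 in m74, 34526 in the median library and 62386 in m61. The 2 rRNAs together stood at 5428 in m115, 7235 in the median library and 16966 in m61. The 22 tRNAs together stood at 7.91 in m57, 12.0 in the median library and 27.1 in m61. The mRNAs made up 77.5 to 84.5% of the mitochondrial counts of a library and the rRNAs 15.5 to 22.4%. The tRNAs made up 0.0222 to 0.0369%.

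The counted level did not follow the classes alone, since 5 of the 13 mRNAs were nearly absent from the table. These were mt-Co2, mt-Atp6, mt-Co3, mt-Nd3 and mt-Nd4l, which held between 14 and 815 counts in a library. The 12 mRNA genes of the plus strand, these 5 included, are read from one precursor. All 5 lie between mt-Co1 and mt-Nd4 in the gene order, and mt-Atp8 was the only mRNA within this stretch with a high count. The sequences of these genes were therefore set beside annotated nuclear transcripts. Each of the 5 proved to have a copy of nearly its whole length among pseudogenes on chromosome 1. The first 80 bases of mt-Co3, which encodes a core subunit of complex IV, are shown with those of its copy Gm28437, and those of mt-Co1, the catalytic subunit of complex IV, with those of its copy Gm13340. Sequences are from the GENCODE M21 transcripts (GRCm38, the build named mm10 in the submitters' processing notes). They run 5′ to 3′, and capitals mark bases that differ within a pair. The mt-Co3 stretch is chrM:8607-8686 on the plus strand and that of Gm28437 is chr1:24613892-24613971 on the minus strand. The mt-Co1 stretch is chrM:5328-5407 on the plus strand and that of Gm13340 is chr2:22589568-22589647 on the minus strand.
mt-Co3: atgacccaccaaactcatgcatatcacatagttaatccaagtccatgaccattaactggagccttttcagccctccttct
Gm28437: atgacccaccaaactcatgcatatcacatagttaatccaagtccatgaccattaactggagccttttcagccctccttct
mt-Co1: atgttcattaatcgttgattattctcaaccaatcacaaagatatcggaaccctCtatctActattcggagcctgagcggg
Gm13340: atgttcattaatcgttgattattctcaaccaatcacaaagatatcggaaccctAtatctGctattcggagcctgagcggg

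The mt-Co3 pair had 0 different bases in this stretch and the mt-Co1 pair had 2. Over the 783 bases that could be compared, mt-Co3 and Gm28437 were equal at 783. The 7 pseudogenes of the chromosome 1 block stand in a row on the minus strand (chr1:24611535-24616197, 4663 bases) in the order of the mitochondrial genome. Gm28661 was equal to mt-Co2 at 681 of 681 bases, Gm10925 to mt-Atp6 at 678 of 678 and Gm10222 to mt-Nd4l at 294 of 294. Gm28438 was equal to mt-Nd3 at 344 of 345 bases. Gm28439 matched only the first part of mt-Nd4, with 876 of 876 bases equal. Gm29216 matched only the end of mt-Co1, with 482 of 483 bases equal between bases 1063 and 1545. No transcript is annotated between Gm10925 and Gm28661, where mt-Atp8 would lie, so no letters were compared there. A second block on chromosome 2 (chr2:22587291-22590533, minus strand) holds more diverged copies of 3 genes. Gm13340 was equal to mt-Co1 at 1508 of 1545 bases, Gm13341 to mt-Co2 at 656 of 672 with 12 gap bases, and Gm13339 to the end of mt-Nd2 at 493 of 510.

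**Figure D1:**
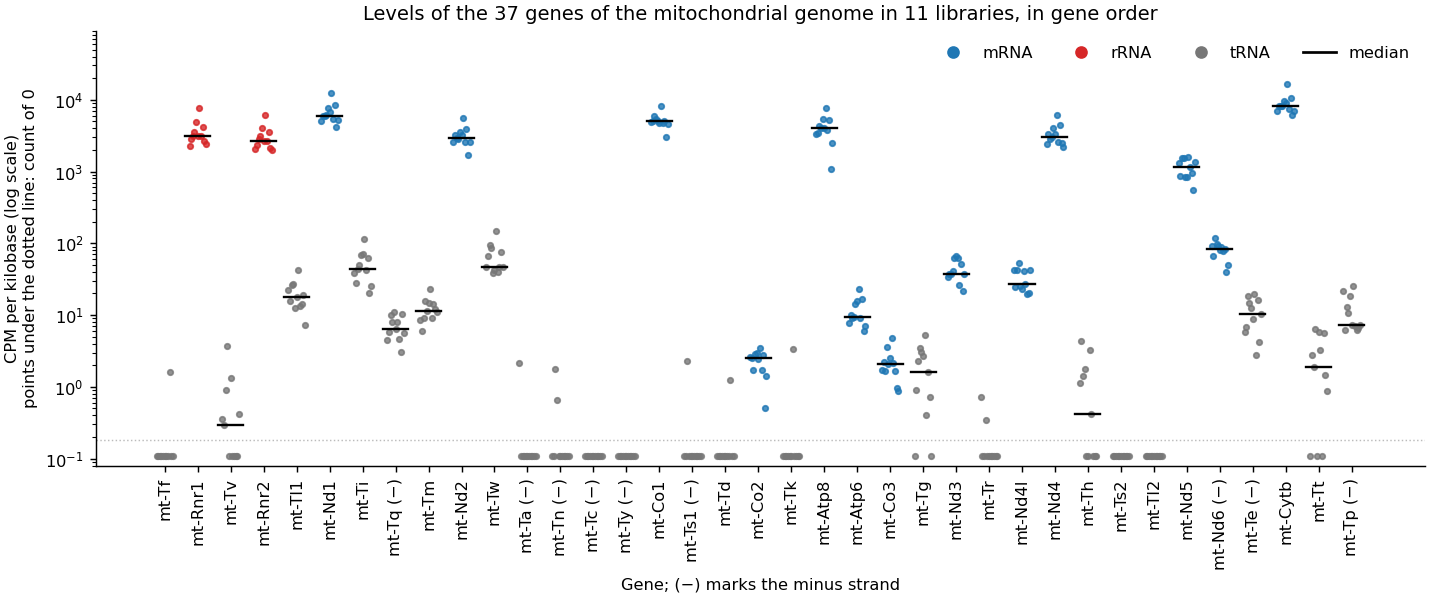
Level of each of the 37 genes in CPM per kilobase of gene length (log scale), in the order of the mitochondrial genome, 1 point for each of 11 libraries and a bar at the median. Points under the dotted line stand for a count of 0. The mRNAs mt-Co2, mt-Atp6, mt-Co3, mt-Nd3 and mt-Nd4l have medians from 2.07 to 37.5, against 1144 to 8224 for the 7 high mRNAs of the plus strand.

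Levels are compared between genes in CPM per kilobase of gene length. The highest was mt-Cytb, the cytochrome b subunit of complex III, at 6201 in m74, 8224 in the median library and 16474 in m61. Among the complex I subunits, mt-Nd1 followed with 4163 in m74, a median of 5985 and 12511 in m61. In all 11 libraries mt-Cytb was above mt-Nd1 and mt-Nd1 above mt-Co1, which had a median of 4978. The order was less firm below, since mt-Co1 was above mt-Atp8 in 9 of 11 libraries. The median was 4019 for mt-Atp8, a small subunit of the ATP synthase (complex V), 2987 for mt-Nd4 and 2921 for mt-Nd2, 2 further complex I subunits. The level of mt-Nd4 was above that of mt-Nd2 in 8 of 11 libraries. The lowest of the high group was the complex I subunit mt-Nd5, at 556 in m74, a median of 1144 and 1575 in m61, and it was below mt-Rnr2 in all 11 libraries.

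Of the low group, mt-Nd3 and mt-Nd4l, both complex I subunits, had medians of 37.5 and 27.0 CPM per kilobase, with mt-Nd3 higher in 6 of 11 libraries. The ATP synthase subunit mt-Atp6 stood at 6.08 in m74, a median of 9.47 and 23.2 in m61. The complex IV subunit mt-Co2 stood at 0.501 in m74, a median of 2.53 and 3.50 in m61. Its raw count was 14 in m74, 55 in the median library and 86 in m83. The level of mt-Co3 was 0.884 in m57, 2.07 in the median library and 4.75 in m61, and its raw count was 24 in m57, 59 in the median library and 120 in m73. The levels of mt-Co2 and mt-Co3 overlapped, with mt-Co2 higher in 6 of 11 libraries. The low count of mt-Co3 was thus shared with 4 other mRNAs, and every library showed it.

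The low counts went with the share of a gene's letters that also stand in an annotated nuclear transcript. For each gene, every start position was asked whether the 50 bases from there occur, on either strand, in such a transcript. This held for every start position in mt-Co2, and for 99.9% in mt-Co3, 99.5% in mt-Atp6, 98.8% in mt-Nd4l and 98.0% in mt-Nd3. It held for 62.2% in mt-Nd4 and 51.1% in mt-Co1, and for 8.19% in mt-Nd2 and 7.61% in mt-Nd5. It held for 1.04% in mt-Rnr2 and for 0 in mt-Rnr1, mt-Nd1, mt-Atp8, mt-Nd6 and mt-Cytb. These values cover annotated transcripts only, and none is annotated where mt-Atp8 would lie in the chromosome 1 block. Whether mt-Atp8 has a copy there is therefore not known. How the authors' counting treated reads that align equally well to several places is not given in the sources used here, and its part in the low counts was not tested.

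**Figure D2:**
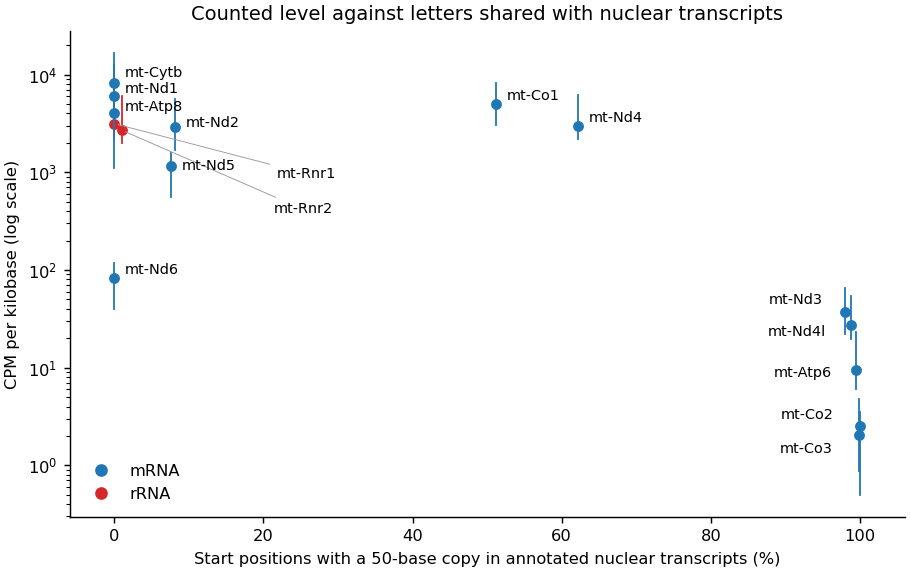
Level of the 13 mRNAs and 2 rRNAs in CPM per kilobase (log scale) against the percent of start positions whose 50-base stretch also stands in an annotated nuclear transcript. Points are medians over 11 libraries and lines run from the lowest to the highest library. The 5 mRNAs at 98.0% or more have medians of 37.5 or less, and mt-Nd6 is low without such a stretch. Copies outside annotated transcripts were not searched, also not where mt-Atp8 would lie in the chromosome 1 block.

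Dividing by the start positions without such a copy, in place of the whole length, moved mt-Co1 and mt-Nd4 most among the mRNAs of high count and the rRNAs. On this scale the median of mt-Co1 was 10522 CPM per kilobase, that of mt-Cytb 8592 and that of mt-Nd4 8198, so mt-Co1 was the highest. This rank rested on the stretch length, since with 100-base stretches mt-Cytb was the highest at 9003, followed by mt-Nd4 at 8198, mt-Atp8 at 7809 and mt-Co1 at 7691. With 50-base stretches the median was 6308 for mt-Nd1, 5290 for mt-Atp8, 3340 for mt-Nd2 and 1273 for mt-Nd5. The number of start positions also falls with the stretch length itself, in proportion most in short genes. For mt-Atp8, no stretch of 50 or 100 bases stood in an annotated nuclear transcript. Its level thus rose only because its divisor fell from 204 bases to 155 and 105 start positions. In mt-Co1 the copy-free stretches lie between bases 5 and 1115, on the 5′ side. In mt-Nd4 they lie between bases 828 and 1378, at the 3′ end. With 100-base stretches the copied share of mt-Co1 was 30.8% and that of mt-Nd5 0.0%, while that of each of the 5 low mRNAs stayed at 97.6% or more.

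The pseudogenes themselves held few counts. Of the chromosome 1 block, Gm28437, the copy of mt-Co3, had 0 to 5 counts in a library, and Gm28438, the copy of mt-Nd3, had 0 to 53. The other 5 of the block had at most 8. Of the 14 counted nuclear genes that share a 50-base stretch with a mitochondrial gene, Gm13340 and Gm13341 of the chromosome 2 block had the most. Gm13341, the diverged copy of mt-Co2, had 80 to 205 counts, which is more than mt-Co2 itself in every library. Gm11407, which shares stretches with mt-Nd5, had 23 to 72 counts, Gm4076, also of mt-Nd5, 9 to 36, and Gm11512, of mt-Co1, 5 to 26. Gm20594, which shares 16 start positions with mt-Rnr2, had 9 to 42 counts, and Gm13339, the third gene of the chromosome 2 block, had 0 to 26.

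Gm13340, the diverged copy of mt-Co1, had 2919 counts in m115 and 3507 in m44, and between 342 and 617 in the other 9 libraries. Set against mt-Co1 in the same library, this is 9.64 counts per 1000 mt-Co1 counts in m115 and 14.4 in m44, and 1.35 to 1.78 in the other 9. The libraries m115 and m44 thus stood apart from all others, while their mt-Co1 levels of 4885 and 4747 CPM per kilobase were inside the range of the rest. The neighbouring pseudogene Gm13341 had 116 counts in m115 and 177 in m44, inside the range of the other libraries.

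**Figure D3:**
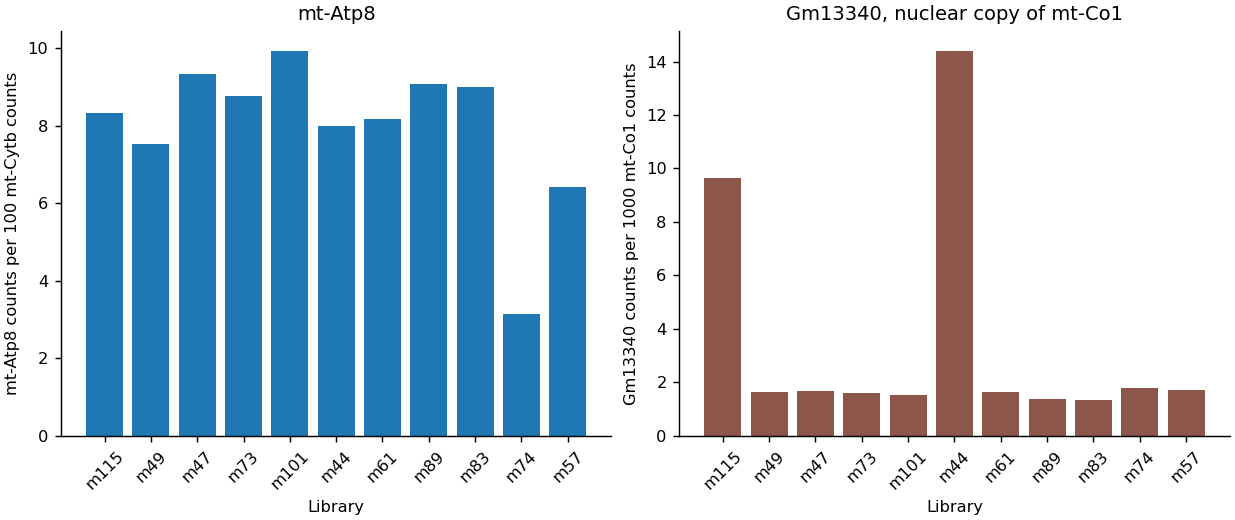
Left, mt-Atp8 counts per 100 mt-Cytb counts in each of 11 libraries. Right, counts of the pseudogene Gm13340 per 1000 mt-Co1 counts. The bar of m74 is the lowest on the left, and those of m115 (9.64) and m44 (14.4) stand above the other 9 on the right.

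The genes mt-Atp8 and mt-Atp6 overlap by 43 bases, the longest overlap in the mitochondrial annotation, and both products belong to the ATP synthase. The overlap is shown within chrM:7897-7999 on the plus strand (GENCODE M21, GRCm38), with the shared bases in capitals.
mt-Atp8/mt-Atp6: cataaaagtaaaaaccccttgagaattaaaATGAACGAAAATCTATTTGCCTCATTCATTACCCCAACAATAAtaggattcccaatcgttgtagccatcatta

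The start codon of mt-Atp6 opens the shared stretch. Despite it, mt-Atp8 had a median of 28281 counts and mt-Atp6 one of 273. Counted per kilobase of bases under no other gene, mt-Atp8 had a median of 5093 CPM, just above the 4988 of mt-Co1, and mt-Cytb remained the highest with 8224. The level of mt-Atp8 was 1096 CPM per kilobase in m74, 2523 in m57 and between 3294 and 7555 in the other 9 libraries. Per mt-Cytb count it was 0.0315 in m74, 0.0641 in m57 and 0.0754 to 0.0993 in the other 9, so m74 stood apart on a scale that needs no scaling between libraries. The highest library was 3.15 times the lowest on this scale. The ratio was 4.61 for the sparse neighbour mt-Co2, also lowest in m74, and 1.19 for mt-Nd1.

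The rRNAs are the RNA scaffolds of the small (mt-Rnr1) and large (mt-Rnr2) subunits of the mitochondrial ribosome. Their tails are short, so selection for poly(A) RNA may keep only part of them, which was not tested. The level of mt-Rnr1 was 2264 CPM per kilobase in m115, 3139 in the median library and 7701 in m61. That of mt-Rnr2 was 2003 in m57, 2678 in the median library and 6076 in m61. Per raw count, mt-Rnr2 had 1.31 counts for each mt-Rnr1 count in m61, 1.40 in the median library and 1.52 in m47. The summed rRNA counts were 0.183 of the summed mRNA counts in m115, 0.235 in the median library and 0.289 in m101. The nuclear gene Lars2, the mitochondrial leucyl-tRNA synthetase, had 1877 to 4149 CPM, and shared no stretch of 20 bases with mt-Rnr2 on either strand.

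The strand that carries few genes was counted at a low level. It holds 9 of the 37 genes, which are mt-Nd6 and 8 tRNA genes. The complex I subunit mt-Nd6 had 39.8 CPM per kilobase in m74, 82.7 in the median library and 117 in m47. As a share of the summed counts of the other 12 mRNAs, it was 0.0736% in m61, 0.1198% in the median library and 0.173% in m47. No 50-base stretch of mt-Nd6 stood in an annotated nuclear transcript. It lies opposite to mt-Nd5 over 14 bases only. How selection for poly(A) RNA acted on mt-Nd6 was not tested. The kit keeps the strand of the RNA, but the strand setting of the counting remains unstated in the sources used here, and whether reads of the opposite precursor are among these counts cannot be told.

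The tRNAs, which carry no poly(A) tail, were close to the limit of detection. Of the 22, 13 had a median at or under 3 counts, which served as the floor, and 4 of these were at 0 in every library (mt-Tc, mt-Ty, mt-Ts2 and mt-Tl2). A count of 0 allows up to 3 counts, which is 0.0619 CPM in the deepest library and 0.133 CPM in the shallowest. The other 9 at or under the floor were mt-Tf, mt-Tv, mt-Ta, mt-Tn, mt-Ts1, mt-Td, mt-Tk, mt-Tr and mt-Th. None of these exceeded 14 counts in any library. The highest were mt-Tw, the tRNA for tryptophan, with 75 to 246 counts and a median of 144, and mt-Ti, the tRNA for isoleucine, with 57 to 198 and a median of 108. Next were mt-Tl1, 1 of 2 leucine tRNAs, with a median of 57, mt-Tm for methionine with 26 and mt-Te for glutamate with 25. Of these 5, mt-Te alone lies on the minus strand, and mt-Tm, mt-Ti, mt-Tw and mt-Tl1 directly neighbour a plus-strand mRNA. This place was not particular to the highest tRNAs. Others beside a plus-strand mRNA include mt-Tl2, at 0 in every library, mt-Th with a median of 1 and mt-Tt with 4. The annotation lets mt-Ti share 2 bases with mt-Nd1 and mt-Tw share 2 with mt-Nd2, so a read over such a junction could be assigned to either gene or to none. The 22 together had 2.74 counts per 10000 mRNA counts in m89, 3.55 in the median library and 4.67 in m74.

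Most mitochondrial genes past the low-count filter were highest in the same library, and most of the mRNAs were also lowest in the same library. The low-count filter was passed by 21 of the 37, comprising 13 mRNAs, 2 rRNAs and 6 tRNAs. All 21 differed at least 2-fold between the highest and the lowest library once a pseudocount of 0.5 CPM was added, against 44.3% of all 15373 genes past the filter. With this pseudocount, the median ratio of the highest to the lowest library was 3.005 over the 21, 2.90 over the 13 mRNAs and 1.90 over all genes. Without m61, with the library sizes scaled anew, 16 of the 21 differed at least 2-fold. The share over all genes is not given for that setting, so this count has no comparison.

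The library m61 was the highest for 18 of the 21, against 17.9% of all genes. The exceptions were mt-Nd3, highest in m44, mt-Nd4l, highest in m73, and mt-Nd6, highest in m47. The library m74 was the lowest for 11 of the 21, among them 10 of the 13 mRNAs, against 8.87% of all genes. The mRNAs mt-Co3 and mt-Nd4 were lowest in m57 and mt-Nd4l was lowest in m83. Both held for 9 of the 21, against 1.76% of all genes. For the summed mRNAs the ratio of highest to lowest library was 2.80 over all libraries, 1.83 without m61, 2.169 without m74 and 1.42 without both. For mt-Cytb the ratio was 2.66, and 1.49 without both. For mt-Atp8 it was 6.89, 4.93 without m61 and 2.995 without m74.

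**Figure D4:**
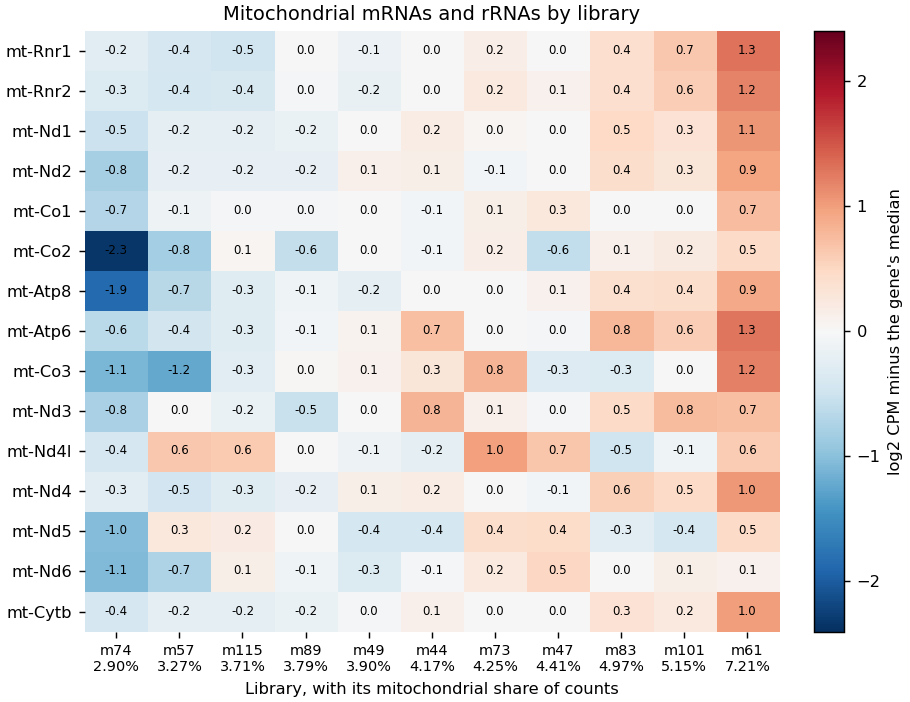
Log2 CPM of each mitochondrial mRNA and rRNA in each of 11 libraries, minus the gene's median over the libraries. Each library is labelled with its mitochondrial share of counts, from 2.90% in m74 to 7.21% in m61. The column of m61 is high and that of m74 low for most genes, and mt-Nd6 is near its median in m61.

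Other measures were set beside the mitochondrial mRNA score, which averages log2(CPM + 0.5), relative to the median of the gene, over the 13 mRNAs. The mRNAs of low count, such as mt-Co2 and mt-Co3, have the same weight in it as the others. The score was -0.81 in m74, 0.09 in the median library and 0.78 in m61. Over 11 libraries it had r = -0.70 and rho = -0.64 with the number of genes detected, which became r = -0.48 without m61 and -0.33 without m61 and m101. With the library total it had r = -0.48 and rho = -0.36, and r was -0.18 without m61 and m49. With 8 of the 9 cell type lists its r lay between -0.14 for cortical neurons and 0.47 for neurons, and r with the neuron list was -0.07 without m61. Of the nuclear gene lists described below, the synthetases had r = -0.69 and rho = -0.15, with r = -0.65 without m61 and m73. Replication had r = -0.66 and rho = -0.28, with r = -0.12 without m61 and m83. Translation had r = -0.54 and rho = -0.07, with r = 0.64 without m61 and m74. The other nuclear lists had r between -0.25 for biogenesis and 0.25 for ribosomal proteins. With the log2 of the summed mRNA level in place of the score, r was -0.81 with genes detected and -0.52 with the library total. The 20 relations of the score are descriptions, share the same libraries and are not all given.

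The nuclear genes of the respiratory complexes did not follow the mitochondrial mRNAs in both extreme libraries. The 30 nuclear subunit genes listed had a score of 0.50 in m61 and 0.39 in m74, the 2 highest values of all libraries. Of the 30, 20 were highest in m61, against 17.9% of all genes, and 0 were lowest in m74, against 8.87% of all genes, a share so low that 0 of 30 says little. The ATP synthase subunit Atp5b, the most abundant, had 1251 CPM in m89, 1798 in m74 and 1892 in m61. The complex IV subunit Cox6a1, with the largest ratio of highest to lowest library in the list, had 165 CPM in m115, 394 in m61 and 434 in m74. The complex II subunit Sdha, with the smallest ratio, had 397 CPM in m89 and 527 in m49. Over the 11 libraries the score of this list had r = 0.21 and rho = 0.40 with the mitochondrial mRNA score. The r was 0.84 without m74, -0.28 without m61 and 0.64 without both. Its sign was thus negative where m61 was left out and m74 kept, and positive without both. The 15 listed ribosomal protein genes went the same way, with scores of 0.78 in m61 and 0.51 in m74. Both libraries were also low on the measure of long minus short transcripts described below, at -0.63 in m61 and -0.43 in m74. The part of that measure in these scores was not tested.

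Nuclear genes for the upkeep and expression of the mitochondrial genome were counted in the same way, with the pseudocount of 0.5 CPM. The number that differed at least 2-fold was 1 of 6 for transcription, 3 of 10 for replication, 2 of 17 for RNA processing, 2 of 13 for translation and 6 of 17 for the aminoacyl-tRNA synthetases, beside the 44.3% of all genes. Tfam, which packages mitochondrial DNA and starts its transcription, had 37.3 CPM in m74, 39.8 in the median library and 48.9 in m61. It was thus lowest and highest in the same libraries as most of the mRNAs. So was Grsf1, an RNA-binding protein of mitochondrial RNA granules, with 98.8 CPM in m74 and 135 in m61. The ratio of highest to lowest library was only 1.31 for Tfam and 1.37 for Grsf1. The pattern held for 1 of 6 transcription and 1 of 17 RNA processing genes, against 1.76% of all genes. Polrmt, the mitochondrial RNA polymerase, did the opposite, with 37.8 CPM in m74, its highest value, and 19.2 in m61, its lowest. Polg, the replicative DNA polymerase, had 87.3 CPM in m74 and 50.2 in m61, its lowest value. Primpol, a primase and polymerase that restarts stalled replication, had the largest ratio among the replication genes, with 1.42 CPM in m61 and 8.75 in m47. Tk2, a mitochondrial thymidine kinase, had the smallest, with 41.3 CPM in m89 and 58.7 in m74.

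Ratios of single genes are given without a pseudocount. In the other lists, the extremes by the same rule were Mterf1b, a member of the transcription termination factor family (0.488 CPM in m61, 1.60 in m115), and Fastkd5, an RNA processing factor (2.67 CPM in m115, 8.02 in m61). The RNA helicase Supv3l1 had a ratio of 1.36 between its highest and lowest library. Of the elongation factors, Gfm1 had a ratio of 1.21 and Gfm2, which acts in ribosome recycling, one of 2.89. Of the synthetases, Ears2 had a ratio of 2.82 and Iars2 one of 1.31. In the biogenesis list, 3 of 6 genes differed at least 2-fold with the pseudocount, against 44.3% of all genes. Its nuclear receptor Esrra had 45.4 to 65.2 CPM. The coactivator Ppargc1b had 1.03 CPM in m101 and 8.20 in m57, a ratio of 7.93.

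The composition of the mitochondrial RNA was set beside a measure of each library that uses no mitochondrial gene. Nuclear genes were ranked by exon length, and the median log2 deviation of the shortest 10% was subtracted from that of the longest 10%, with 1533 genes in each. It was lowest in m61 at -0.63, m83 at -0.46, m74 at -0.43, and m101 at -0.22. It was -0.10 in m49 and -0.07 in m44, and 0.23 in m89, 0.24 in m73 and 0.38 in m47. The highest values were 0.43 in m57 and 0.43 in m115. This measure was chosen after earlier results of these data were known. RNA quality values are not given in the labels.

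The longest mRNA, mt-Nd5, held a larger share of mitochondrial counts in libraries above 0 on this measure than in those below 0. Below 0 the share lay between 3.15 and 3.98% without a steady rise, and above 0 it rose from 5.60 to 7.30%. It was 3.62% in m61, 3.46% in m83, 3.597% in m74, 3.15% in m101, 3.98% in m49 and 3.70% in m44. It was 5.60% in m89, 6.55% in m73, 6.62% in m47, 7.30% in m57 and 6.86% in m115. The relation over 11 libraries had r = 0.91 and rho = 0.91, with r between 0.91 and 0.95 when each library was left out. The share of mt-Co1, the second longest, ran from 15.3% in m83 to 21.5% in m47, with r = 0.92 and rho = 0.90. For the short mt-Nd4l r was 0.84 and rho 0.81, and for mt-Nd6 r was 0.73 and rho 0.64. The opposite sign was found for mt-Nd4 with r = -0.85 and rho = -0.84, and for mt-Rnr1 with r = -0.74 and rho = -0.76. Without m61 and m57, r was 0.93 for mt-Nd5, 0.92 for mt-Co1, 0.93 for mt-Nd6, -0.97 for mt-Nd4 and -0.62 for mt-Rnr1. Weaker negative values were found for mt-Nd1 (r = -0.66), mt-Rnr2 (r = -0.61), mt-Atp6 (r = -0.59) and mt-Cytb (r = -0.58), and mt-Nd2 had r = -0.01. The signs were thus mixed by annotated gene length, since mt-Nd4 is longer and mt-Nd4l shorter than most. At each stretch length used, 502 start positions of mt-Nd4 and 3 of mt-Nd4l had no copy in an annotated nuclear transcript. Whether the sign follows the length of the copy-free part of a gene, or its place in the gene, was not tested. Shares of 1 total move against each other. Per mt-Cytb count, r of mt-Nd5 was 0.92.

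**Figure D5:**
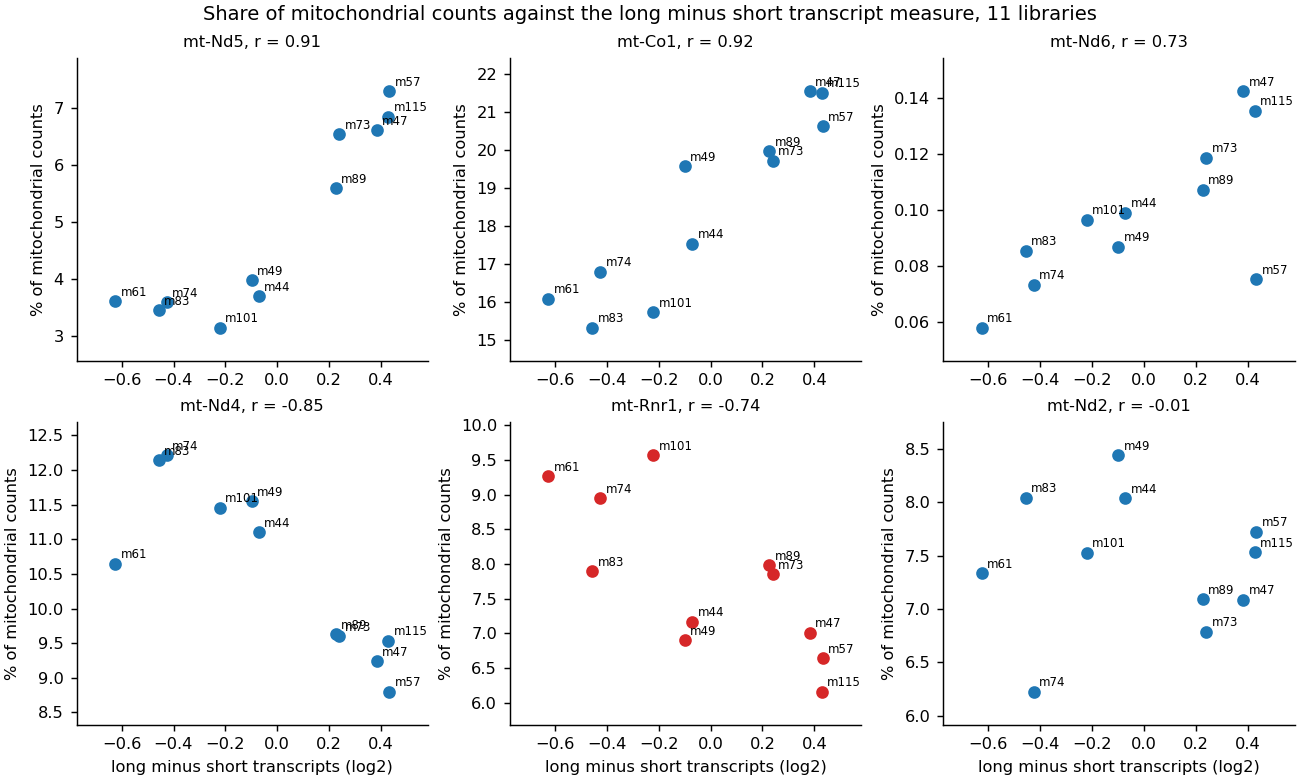
Percent of mitochondrial counts held by each of 6 genes (y axis) against the long minus short transcript measure (x axis, log2), 1 point for each of 11 libraries. The shares of mt-Nd5 and mt-Co1 are higher at the right (r = 0.91 and 0.92), those of mt-Nd4 and mt-Rnr1 are lower at the right (r = -0.85 and -0.74), and mt-Nd2 has r = -0.01. In the mt-Nd6 panel m57 lies apart.

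Ratios within the mitochondrial genome need no scaling between libraries. There were 8 relations, 4 ratios against the library total and against the length measure, and each was tested with 100000 two-sided permutations over 11 libraries and Benjamini-Hochberg adjustment over the 8. The ratio of mt-Rnr2 to mt-Rnr1 with the length measure had r = 0.78 (permutation p = 0.00534, adjusted p = 0.0427), while rho was 0.66 (permutation p = 0.0311, adjusted p = 0.124). Without the extreme libraries on the length measure, m61 and m57, r was 0.83. Leaving out 1 library kept r between 0.71 and 0.88, but the adjusted permutation p was above 0.05 without each of 9 of the 11 libraries, with values from 0.00504 to 0.204, the highest without m61. The ratio of rRNA to mRNA had r = -0.68 and rho = -0.67 with the length measure (adjusted permutation p = 0.0685 and 0.124) and did not pass. The ratio of mt-Nd6 to the other mRNAs had r = 0.68 and rho = 0.52 (adjusted permutation p = 0.0685 and 0.282) and did not pass. Without m57 it had r = 0.93 (adjusted permutation p = 0.00112). Over the 11 ways of leaving out 1 library, its adjusted permutation p ran from 0.00112 to 0.284. None of the 4 relations with the library total passed, with adjusted permutation p from 0.350 for rRNA to mRNA upward. The labels name no sequencing batch, and within-batch values could therefore not be had.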

How the data were processed

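Poly(A) RNA was measured in 11 libraries. The authors deposited counts per gene, whole numbers without normalization. The submitters' processing notes name HTSeq 0.6.1, TopHat2 2.0.14, Bowtie2 2.1.0 and bcl2fastq 2.17.1.14, and the mm10 genome. The counting mode, its strand setting and the annotation release were not given there. Of the 52550 gene identifiers, 52403 matched GENCODE M21, and the 147 others held 0.0112 to 0.0214% of a library's counts.

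CPM were computed from these counts with TMM scaling (edgeR 4.0.16, R 4.3.3), with DESeq2 1.42.0 size factors, unscaled totals and scaling on nuclear genes only as alternatives. Python 3.11.15, numpy 2.4.6, pandas 2.3.3, scipy 1.17.1, matplotlib 3.10.9 and Biopython 1.88 were used for the rest. The steps were tested on simulated data. A comparison with nuclear chromosomes was planned. Without a genome sequence it was made with the annotated nuclear transcripts of GENCODE M21, so copies outside them are not seen. Pseudogenes were aligned locally with their mitochondrial gene. A score is the mean over a list's genes past the filter of log2(CPM + 0.5) minus each gene's median. Clusters were called separate where 1 gap took more than 0.5 of the range and left 2 or more libraries to either side; no r is given there.

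The members, the gene lists and the rule for naming genes were chosen with earlier results of these data known. Named are all mRNAs and rRNAs, the 5 highest tRNAs and those at or under the floor, the 10 nuclear genes with shared stretches that have the most counts, and in each nuclear pathway list the most abundant gene and those of largest and smallest ratio. Genes named beyond this rule, among them Polrmt and the other pseudogenes of the chromosome 1 block, were chosen after their values were seen. Of 18 listed RNA processing genes, 17 were found by symbol. No 2 libraries agreed within sampling noise. The libraries are from separate animals without a group, so no mean, standard deviation or test between groups is given.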

Additional observations from a re-analysis of the deposited data

How the results depend on the processing

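No paired analysis was possible because the labels put no library in a group and give no replicate numbers. Of the 8 relations of ratios, 1 passed with all 11 libraries, and between 0 and 2 passed when 1 library was left out. Of these relations, 3 changed sign without m61. The ratio of mt-Rnr2 to mt-Rnr1 with the library total had r between -0.0166 and 0.496 over the 11 ways of leaving out 1 library, the share of mt-Nd6 with the library total between -0.348 and 0.282, and the ratio of tRNA to mRNA with the length measure between -0.335 and 0.00914. The count of genes that differed at least 2-fold was 16 to 21 of 21 over these settings and 18 with a pseudocount of 1 CPM. The count highest in m61 was 17 to 18, and 15 with unscaled totals, and the count lowest in m74 was 11 to 12. The other scalings left the 3 counts at 21, 18 and 11. Shares over all genes are given for the main setting only, so these counts have no comparison. The 30-base stretches, the levels per copy-free position at each stretch length, the shares of single genes against the length measure and the ratio of Gm13340 to mt-Co1 were added after the data were seen. With 30-base stretches, 64.8% of mt-Co1, 17.5% of mt-Nd5, 8.00% of mt-Atp8, 8.37% of mt-Nd6 and 7.35% of mt-Cytb had a copy. Depth limits the tRNAs, mt-Co2 and mt-Co3, whose lowest counts were 14 and 24. For genes with a near-identical copy, the amount of RNA cannot be read from the counts.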
